A study of Mus musculus with 26 samples.

Results

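The enzymes and transporters that make, store, recapture and break down catecholamines were followed across 8 subtypes of mouse dorsal root ganglion neuron. The 9 genes, Th, Ddc, Dbh, Gch1, Slc18a1, Slc18a2, Slc6a2, Slc6a3 and Maoa, were chosen by symbol from 39017 genes in the count table, and the question was whether Th in C-LTMRs is joined by the rest of the pathway. Dopamine is made from tyrosine by tyrosine hydroxylase (Th) and then aromatic amino acid decarboxylase (Ddc), and noradrenaline is made from dopamine by dopamine beta-hydroxylase (Dbh). Tyrosine hydroxylase needs the cofactor tetrahydrobiopterin, whose synthesis starts with GTP cyclohydrolase (Gch1). Vesicular monoamine transporters (Slc18a1, Slc18a2) load the amine into vesicles, plasma membrane transporters (Slc6a2 for noradrenaline, Slc6a3 for dopamine) take it back up, and monoamine oxidase A (Maoa) degrades it. Th is a classical marker of C-LTMRs, the unmyelinated low-threshold mechanoreceptors of hairy skin.

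Neurons were sorted by fluorescence from dissociated ganglia of adult mice (P23 and beyond), and each library pooled several mice and sorting rounds. The reporters MrgD-EGFP, CGRP-GFP and Npy2r-GFP marked nonpeptidergic nociceptors, peptidergic nociceptors and Aβ RA-LTMRs. C-LTMRs were labelled with ThCreER and the Ai14 tdTomato reporter after 2 mg of tamoxifen a day at P13-14 (P14-15), Aδ-LTMRs with TrkBCreER and Ai14 after 2 mg a day at E12-13, and proprioceptors with PVIRESCre and Ai14. Aβ SA1-LTMRs and Aβ Field-LTMRs were both labelled with TrkCCreER and Retf(GFP). The first received 3 mg of tamoxifen at E12.5 and the second 2 mg a day at P13-14 (P14-15). Proprioceptors came from thoracic ganglia and the other subtypes from all axial levels, so axial level, line and tamoxifen cannot be told apart from subtype. The 26 libraries, 5 from Aβ RA-LTMRs and 3 from each other subtype, held 10706522 to 66309214 counts each. The p-values measure the spread between these pooled libraries. Because Th drove the Cre of the C-LTMR line, its level there checks the label and is not independent evidence about these cells.

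Levels are given as normalised counts (CPM, scaled to library size), for comparisons between subtypes, and as the deposited RPKM, which is per length, for comparisons between genes. A gene passed a comparison when its p, adjusted by Benjamini and Hochberg's method, was under 0.05 with a log2 fold change of 1 or more in either direction, in edgeR's quasi-likelihood test over 17411 genes. Of the 9 genes, 6 had enough counts to be tested. Dbh, Slc6a2 and Slc6a3 were too low. The 5 markers fixed for C-LTMRs (Slc17a8, Fam19a4, Gfra2, Cacna1h, Cacna1i) were all higher in the libraries labelled C-LTMR than in the mean of the other 7 subtypes. Satellite glia markers were found in every subtype, at a summed level of 340 to 449 CPM in nonpeptidergic nociceptors, 630 to 786 in C-LTMRs and 2007 to 4190 in proprioceptors. In sorted pools, fewer cells of a type and less RNA per cell cannot be told apart.

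Among the 6 tested genes, all 6 differed over the 8 subtypes (F test, adjusted p under 0.05 with no fold limit), against 78.3% of all genes tested. Th was higher in C-LTMRs than in each of the other 7 subtypes, and it was the 1 gene of the 6 that was, against 0.902% of all genes. Against the mean of the other 7, Th and Maoa were higher (10.1% of all genes were) and Ddc was lower (8.22% of all genes were). The median log2 fold change of the 6 genes in that comparison was 0.08, beside -0.02 over all genes. Over the 28 pairs of subtypes, 85 of 168 gene-by-pair tests passed, or 50.6%, beside 21.8% for all genes. Taken subtype by subtype, 1 of the 6 genes (Th) separated C-LTMRs from nonpeptidergic nociceptors, beside 24.8% of all genes. Against peptidergic nociceptors 3 did (Th, Slc18a1, Maoa), beside 11% of all genes, and against Aδ-LTMRs 2 did (Th, Slc18a1), beside 18.7%. Against Aβ RA-LTMRs and Aβ Field-LTMRs the 4 were Th, Ddc, Gch1 and Maoa, beside 28.9% and 19.7% of all genes. Against Aβ SA1-LTMRs 3 passed (Th, Ddc, Maoa), beside 28.7%, and against proprioceptors 4 (Th, Ddc, Slc18a1, Maoa), beside 32.4%. The 6 genes were the ones with enough counts, so their count of differences is a description.

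The start regions of the opening enzyme and of the enzyme that follows it are shown as a description. Their part in the levels of these genes was not tested. Of the 9 genes, 7 had an entry in the RefSeq table of starts (build GRCm38.p6), with 2 starts for Ddc. Only the upstream start of Ddc is printed, and which start the neurons use was not examined. The 250 bases before the RefSeq start of Th lie at chr7:142899996-142900245 on the minus strand, and those before the upstream start of Ddc at chr11:11898145-11898394, also on the minus strand. Both are printed 5′ to 3′ in the direction of the gene. The GENCODE span of Th, chr7:142892752-142931128, reaches upstream of its RefSeq start, so the Th window lies inside the annotated gene. Which start of Th the neurons use was not examined either.
Th: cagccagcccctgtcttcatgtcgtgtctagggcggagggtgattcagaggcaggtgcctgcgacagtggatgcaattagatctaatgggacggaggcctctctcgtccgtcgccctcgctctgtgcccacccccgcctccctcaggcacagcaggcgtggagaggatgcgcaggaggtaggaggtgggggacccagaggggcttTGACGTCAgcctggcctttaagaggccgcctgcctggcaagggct
Ddc: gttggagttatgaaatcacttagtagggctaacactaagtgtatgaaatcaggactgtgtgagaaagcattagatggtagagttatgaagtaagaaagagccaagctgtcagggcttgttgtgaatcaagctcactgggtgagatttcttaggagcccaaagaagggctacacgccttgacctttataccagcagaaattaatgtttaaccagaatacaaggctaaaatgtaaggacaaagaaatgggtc
The capitals mark the cyclic AMP response element TGACGTCA, which reads the same on both strands. In Th it covers bases 45 to 38 before the start, and among the 7 genes with an entry it was found in this window in Th alone. The same letters stand in this window at 1.55% of the 32851 starts in the table.

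Th (ENSMUSG00000000214, chr7:142892752-142931128, minus strand) had 16004, 22439 and 24979 counts in the 3 C-LTMR libraries, or 424, 437 and 332 CPM. Its RPKM there was 312, 333 and 272, which ranked it at position 104, 99 and 127 of all genes of each library. Every one of these values lay far above the next subtype, peptidergic nociceptors, where the RPKM was 15.7, 23.9 and 21.9. Aδ-LTMRs followed with 14.0, 6.75 and 15.1 RPKM and Aβ Field-LTMRs with 7.54, 11.1 and 6.75. Lower values were found in Aβ SA1-LTMRs (1.499, 5.56 and 5.80 RPKM), nonpeptidergic nociceptors (2.37, 1.43 and 3.00) and Aβ RA-LTMRs (1.21, 1.51, 1.70, 1.81 and 4.30). Proprioceptors were lowest, at 0.859, 0.856 and 0.883 RPKM. The C-LTMR libraries overlapped no other library on either scale.

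In the fit, Th was higher in C-LTMRs than the mean of the other 7 by 5.94 on the log2 scale (SE 0.23, adjusted p = 4.98e-16). Against peptidergic nociceptors the difference was 3.81 (SE 0.46, adjusted p = 9.22e-07), a 14.0-fold difference, and against proprioceptors it was 8.06 (SE 0.57, adjusted p = 2.75e-11). Th also separated subtypes other than C-LTMRs: 21 of the 28 pairs passed for this gene. Peptidergic nociceptors were above Aβ Field-LTMRs by 1.21 (SE 0.42, adjusted p = 0.0358), with no overlap of libraries. Neighbours in the order did not all separate. Peptidergic nociceptors against Aδ-LTMRs gave an adjusted p of 0.105, Aδ-LTMRs against Aβ Field-LTMRs 0.699, Aβ Field-LTMRs against Aβ SA1-LTMRs 0.111, and Aβ RA-LTMRs against nonpeptidergic nociceptors 0.977.

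The level of Th outside C-LTMRs can be read beside other genes of those cells. In peptidergic nociceptors Th stood at 7.15% of its C-LTMR mean CPM, while Slc17a8, the vesicular glutamate transporter of C-LTMRs, stood at 1.32%, Fam19a4 at 2.33% and the T-type calcium channel gene Cacna1i at 2.32%. In Aβ Field-LTMRs Th stood at 3.10%, beside 1.41% for Slc17a8, 19.4% for Fam19a4 and 1.15% for Cacna1i. In Aδ-LTMRs the value for Th was 3.76%, beside 2.41% for Slc17a8, 3.94% for Fam19a4, 11.6% for Gfra2 and 1.52% for Cacna1i. Gfra2 and Cacna1h were each higher in 1 other subtype: Gfra2 stood at 122% in nonpeptidergic nociceptors and Cacna1h at 223% in Aδ-LTMRs, while in peptidergic nociceptors they stood at 6.41% and 21.1%. Whether stray C-LTMRs contributed to Th in the other sorts was not tested.

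**Figure D1:**
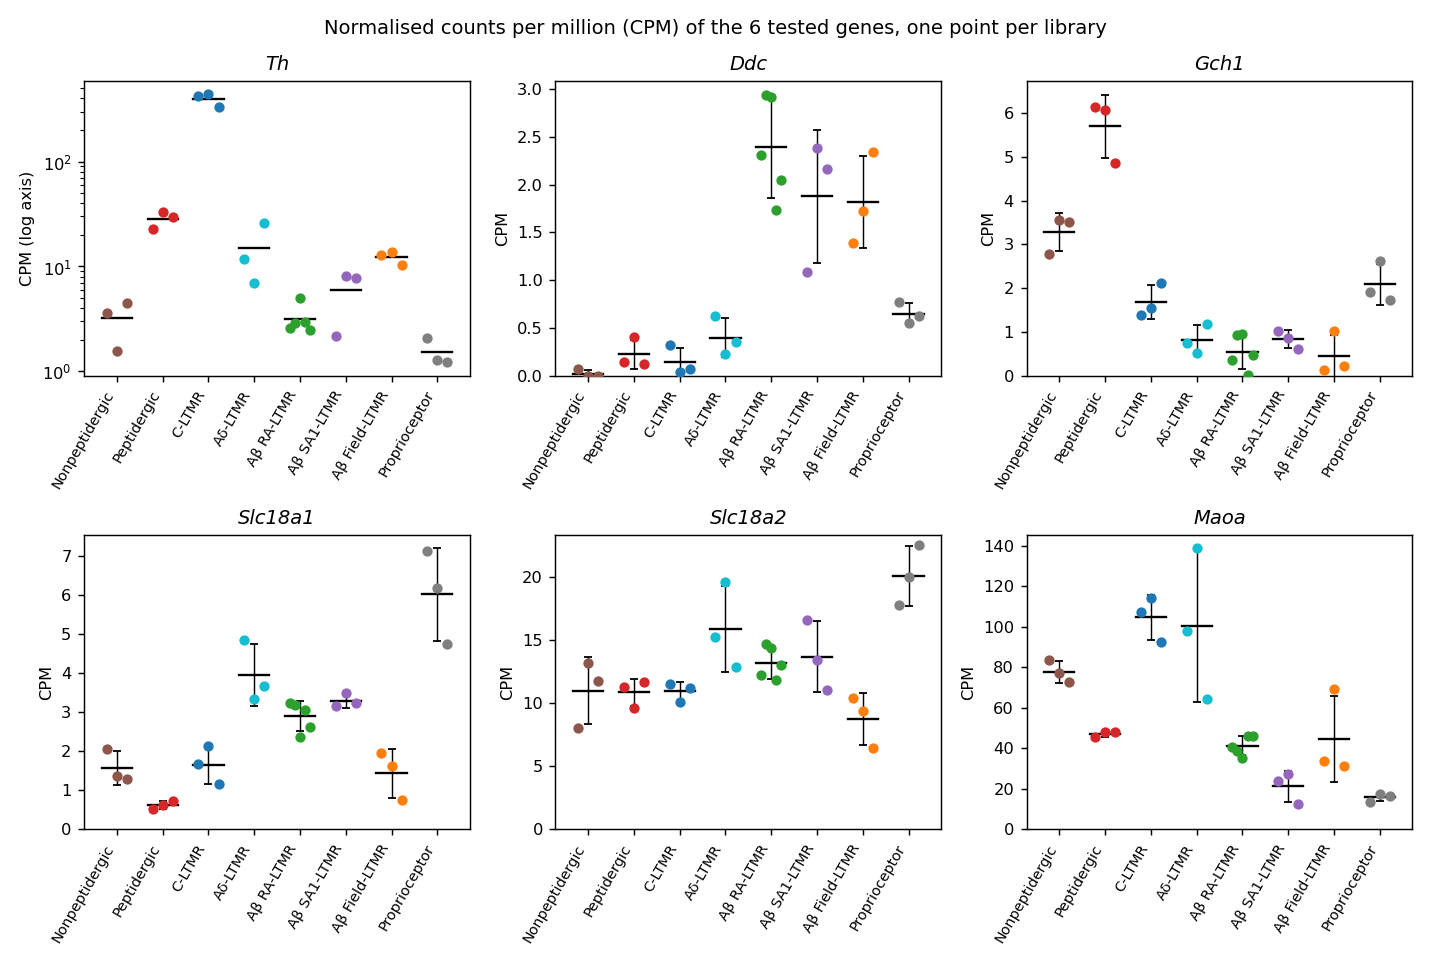
Normalised CPM of Th, Ddc, Gch1, Slc18a1, Slc18a2 and Maoa on the y axes (log axis for Th, linear from 0 for the others) by subtype, with 1 point per library, a line at the mean and bars of 1 SD (no bars for Th). Th stands apart in C-LTMRs at 332 to 437 CPM, Ddc is highest in the 3 Aβ-LTMR subtypes, Gch1 in peptidergic nociceptors and Slc18a1 and Slc18a2 in proprioceptors, and Maoa is high in both C-LTMRs and Aδ-LTMRs.

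Ddc (ENSMUSG00000020182, chr11:11814101-11898144, minus strand), whose product turns L-DOPA into dopamine, was near the limit of detection in C-LTMRs, with 12, 2 and 5 counts. These correspond to 0.318, 0.0390 and 0.0665 CPM. Nonpeptidergic nociceptors had 4, 0 and 0 counts, where 3 counts over the subtype correspond to 0.0197 CPM, and peptidergic nociceptors had 9, 21 and 7. The gene was readily detected elsewhere. Aβ RA-LTMRs had 1.74, 2.04, 2.31, 2.92 and 2.94 CPM, Aβ SA1-LTMRs 1.09, 2.38 and 2.16, and Aβ Field-LTMRs 1.39, 1.72 and 2.34. Proprioceptors had 0.771, 0.557 and 0.626 CPM and Aδ-LTMRs 0.622, 0.223 and 0.349. No library of C-LTMRs reached the lowest library of any Aβ subtype or of proprioceptors.

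Ddc was lower in C-LTMRs than in Aβ RA-LTMRs by a log2 difference of -4.16 (SE 0.72, adjusted p = 4.41e-05), and the differences from Aβ SA1-LTMRs (-3.81), Aβ Field-LTMRs (-3.76) and proprioceptors (-2.27) also passed. C-LTMRs did not separate from peptidergic nociceptors (adjusted p = 0.623), Aδ-LTMRs (0.11) or nonpeptidergic nociceptors (0.0514). The 3 Aβ-LTMR subtypes did not separate from each other, with adjusted p-values of 0.691 to 0.982. Against the mean of the other 7, the log2 difference of C-LTMRs was -2.003 (SE 0.63, adjusted p = 0.0143). Without C-LTMR library 1, which held most of the counts of that subtype, it was -3.24 (adjusted p = 0.0025), and the lowest of the 7 differences was -5.39. The call was lost without C-LTMR library 2 (-1.55, adjusted p = 0.116), without C-LTMR library 3 (-1.62, adjusted p = 0.113) and in the fit that took the satellite glia score into account (-1.79, adjusted p = 0.0982). It was also lost without nonpeptidergic library 1, since the remaining 2 libraries of that subtype were at 0 and the mean could not be estimated.

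Per length, the gap between these enzymes in C-LTMRs was wide. The RPKM of Ddc was 0.118%, 0.00563% and 0.0257% of that of Th in the 3 C-LTMR libraries. In Aβ RA-LTMRs, with far less Th, Ddc stood at 30.6% to 94.2% of Th, and in proprioceptors at 46.0%, 47.9% and 58.6%. In peptidergic nociceptors, the subtype next in Th, Ddc was 0.984%, 0.951% and 0.274% of Th. Across the 26 libraries the log2 CPM of Th and Ddc had a Pearson r of -0.34, given as a description over libraries that share subtypes.

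Dbh (ENSMUSG00000000889, chr2:27165233-27183200, plus strand), the enzyme that commits dopamine to noradrenaline, had 0 counts in all 3 C-LTMR libraries. Over the subtype, 3 counts correspond to 0.0200 CPM, which is the level a count of 0 allows, for counting error only. In the whole series the gene had 17 counts, in 8 of 26 libraries, with no more than 5 in any library. Peptidergic nociceptors had 4, 3 and 0 counts and Aβ SA1-LTMRs 0, 0 and 5. The deposited RPKM of Dbh in peptidergic library 1 was 0.463, although that library had 4 counts. The ratio of CPM (here of the plain library total) to RPKM was 0.149 there, 0.686 in peptidergic library 2 (3 counts) and 2.52 to 2.77 in 4 other libraries, so the RPKM values of those peptidergic libraries and the counts disagree.

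Gch1 (ENSMUSG00000037580, chr14:47153895-47189413, minus strand), the entry enzyme of the cofactor pathway, was highest in peptidergic nociceptors. It had 6.15, 6.06 and 4.87 CPM there, 2.78, 3.56 and 3.51 in nonpeptidergic nociceptors, and 1.91, 2.62 and 1.73 in proprioceptors. C-LTMRs had 1.38, 1.56 and 2.12 CPM, which overlapped proprioceptors and lay below both kinds of nociceptor. Aβ SA1-LTMRs (1.02, 0.857 and 0.620 CPM) and Aδ-LTMRs (0.741, 0.520 and 1.18) were lower, and Aβ Field-LTMRs had 6, 10 and 10 counts. Aβ RA-LTMRs ran from 0.0209 CPM, a single count, over a median of 0.479 to 0.961.

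Against the mean of the other 7, Gch1 in C-LTMRs differed by 0.41 (SE 0.46, adjusted p = 0.522) and did not pass. It was higher in C-LTMRs than in Aβ RA-LTMRs by 1.61 (adjusted p = 0.0227) and than in Aβ Field-LTMRs by 2.23 (adjusted p = 0.022). Peptidergic nociceptors passed against Aδ-LTMRs and the 3 Aβ-LTMR subtypes, by 2.77 to 3.99, but not against C-LTMRs (1.75, SE 0.63, adjusted p = 0.063), nonpeptidergic nociceptors (0.79, adjusted p = 0.33) or proprioceptors (1.45, adjusted p = 0.0644). On log2(RPKM + 0.1) with limma, Gch1 was higher in peptidergic nociceptors than in every other subtype, a call that none of the other settings run gave, log2(RPKM + 1) included. Genes induced by axon injury had their highest mean log2 CPM in the same subtype, at 2.42 ± 0.25 (SD, n = 3). Next were C-LTMRs (1.945 ± 0.483, n = 3) and Aβ SA1-LTMRs (1.87 ± 1.41, n = 3), and Aβ RA-LTMRs were lowest (0.67 ± 0.14, n = 5). The part of the injury genes in the level of Gch1 was not tested.

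**Figure D2:**
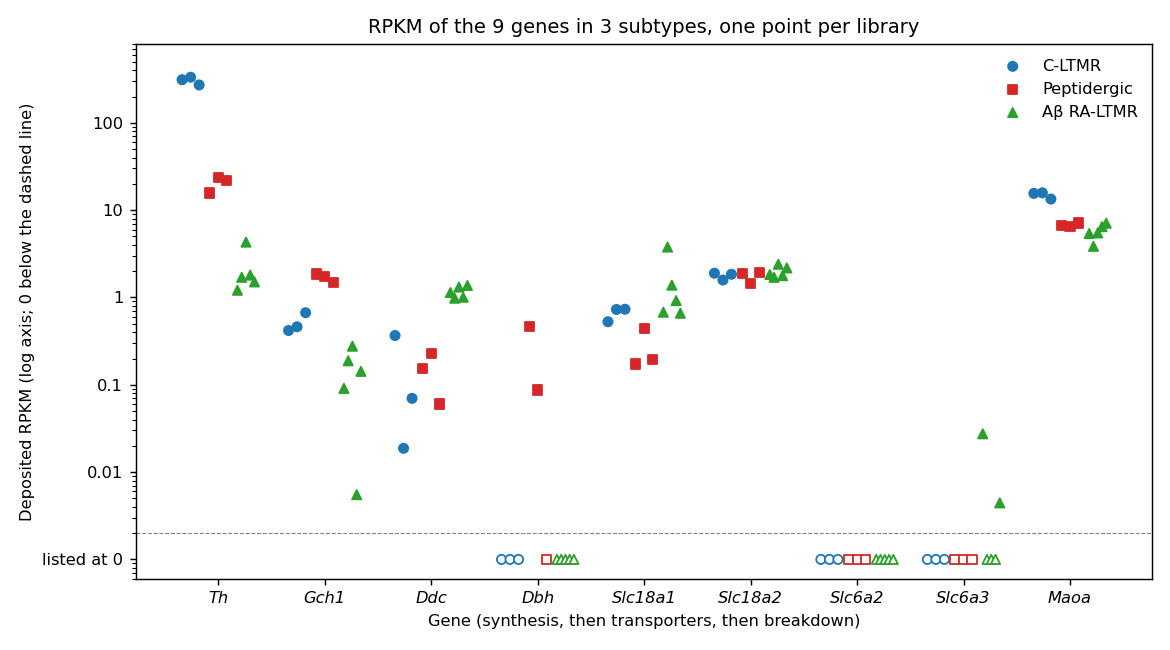
Deposited RPKM (y axis, log, with values listed at 0 drawn as open symbols under the dashed line) of the 9 genes (x axis) in C-LTMRs, peptidergic nociceptors and Aβ RA-LTMRs, with 1 point per library. In C-LTMRs Th lies between 272 and 333, Maoa between 13.4 and 15.8, Slc18a2 between 1.58 and 1.90, and Dbh, Slc6a2 and Slc6a3 at 0.

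Slc18a2 (ENSMUSG00000025094, chr19:59260896-59296012, plus strand), the vesicular transporter of central monoamine neurons, was present in every library, at 6.43 to 22.6 CPM. C-LTMRs had 11.6, 10.1 and 11.2 CPM, close to peptidergic (11.3, 9.66 and 11.7) and nonpeptidergic nociceptors (8.07, 13.2 and 11.8). Proprioceptors were highest, with 17.8, 20.02 and 22.6 CPM, and Aβ Field-LTMRs lowest, with 10.4, 9.43 and 6.43. The libraries of most subtypes overlapped. Of the 28 pairs, Aβ Field-LTMRs against proprioceptors passed, with a log2 difference of -1.21 (SE 0.22, adjusted p = 2.09e-04). Proprioceptors were above C-LTMRs by 0.88 (adjusted p = 0.00205), which missed the fold threshold. Satellite glia markers had their highest summed level in proprioceptors too. In the fit that took the satellite glia score into account, 1 of the 28 pairs passed for Slc18a2. The lowest of the 7 differences of C-LTMRs was then -0.735, beside -0.879 in the main fit. Whether glia contributed to the counts of Slc18a2 was not tested. C-LTMRs against the mean of the other 7 gave -0.24 (SE 0.17, adjusted p = 0.282), and the sign turned on the RPKM scale (0.10 and 0.05, neither called). An antisense gene, Gm29261, which is not among the counted genes, shares 111 of the 5225 exon bases of Slc18a2. As the strand of counting is not given in the sources used here, reads over those shared bases cannot be told apart.

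Slc18a1 (ENSMUSG00000036330, chr8:69037711-69089235, minus strand), the vesicular transporter known from chromaffin cells, was also detected in all 26 libraries. Proprioceptors had 7.12, 6.18 and 4.75 CPM, Aδ-LTMRs 4.86, 3.34 and 3.69, Aβ SA1-LTMRs 3.16, 3.49 and 3.23, and Aβ RA-LTMRs 2.36, 2.63, 3.06, 3.19 and 3.24. C-LTMRs had 1.67, 2.14 and 1.17 CPM, overlapping nonpeptidergic nociceptors (2.07, 1.36 and 1.29) and Aβ Field-LTMRs (1.96, 1.62 and 0.744). Peptidergic nociceptors were lowest, with 0.527, 0.631 and 0.733 CPM. The gene was lower in peptidergic nociceptors than in each other subtype, as were 0.195% of all genes, with log2 differences from -1.175 (Aβ Field-LTMRs, adjusted p = 0.0161) to -3.25 (proprioceptors, adjusted p = 8.27e-08). It was lower in C-LTMRs than in proprioceptors (-1.86, SE 0.34, adjusted p = 8.93e-05) and Aδ-LTMRs (-1.26, SE 0.34, adjusted p = 0.00654), and against the mean of the other 7 it differed by -0.46 (SE 0.26, adjusted p = 0.181).

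The scales parted for Slc18a1. Its RPKM was 3.78 in Aβ RA-LTMR library 5, 3.06 in Aβ SA1-LTMR library 1 and 3.77 in Aβ SA1-LTMR library 2, above every proprioceptor library (2.23, 1.297 and 1.39). The ratio of CPM to RPKM was 0.778, 1.13 and 0.795 in those 3 libraries, beside a median of 3.42 over all libraries. The highest ratio was 7.07 times the lowest, where the median over 10272 genes was 2.00 times. The lower level in peptidergic nociceptors than in every other subtype did not pass on the RPKM scale, without a filter on low counts, or in the fit that took the satellite glia score into account. It was also lost without peptidergic library 1, without C-LTMR library 2 and without Aβ Field-LTMR library 1. The gene span of Slc18a1 overlaps that of Atp6v1b2, a proton pump subunit gene on the opposite strand with 642386 counts, but the annotation gives them no shared exon bases.

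The plasma membrane transporters were at or near 0. Slc6a2 (ENSMUSG00000055368, chr8:92960079-93001667, plus strand) had 3 counts in the series, 1 in Aδ-LTMR library 3 and 2 in proprioceptor library 1. Slc6a3 (ENSMUSG00000021609, chr13:73536747-73578672, plus strand) had 5 counts, 3 in Aβ RA-LTMR library 4, 1 in Aβ RA-LTMR library 3 and 1 in Aβ Field-LTMR library 3. Both had 0 counts in the 3 C-LTMR libraries, which allows up to 0.0200 CPM over the subtype. The same 3 libraries together held 63422 counts of Th.

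Maoa (ENSMUSG00000025037, chrX:16619698-16687818, plus strand), which oxidises noradrenaline, dopamine and serotonin, was detected throughout and varied by subtype. C-LTMRs had 107, 114 and 92.6 CPM, Aδ-LTMRs 97.8, 139 and 64.4, and nonpeptidergic nociceptors 83.4, 77.2 and 72.6. C-LTMR and Aδ-LTMR libraries overlapped, and nonpeptidergic libraries lay just under C-LTMRs. Peptidergic nociceptors (45.5, 47.8 and 47.8 CPM), Aβ RA-LTMRs (35.1 to 46.2, median 40.5) and Aβ Field-LTMRs (33.6, 69.0 and 31.3) formed a middle range. The lowest levels were in Aβ SA1-LTMRs (23.7, 27.3 and 12.7 CPM) and proprioceptors (13.7, 17.3 and 16.5).

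Maoa was higher in C-LTMRs than the mean of the other 7 by 1.32 (SE 0.18, adjusted p = 2.27e-06). It passed against 5 of the 7, from 1.15 over peptidergic nociceptors (SE 0.27, adjusted p = 0.00365) to 2.72 over proprioceptors (SE 0.29, adjusted p = 2.97e-08). The difference from Aδ-LTMRs was 0.06 (SE 0.27, adjusted p = 0.896) and that from nonpeptidergic nociceptors 0.43 (SE 0.27, adjusted p = 0.227). On the RPKM scale the C-LTMR libraries, at 15.6, 15.8 and 13.4, lay above every other library, with Aδ-LTMRs at 7.399, 9.36 and 6.95. With limma on log2(RPKM + 0.1) the smallest difference of C-LTMRs from another subtype was 0.84, under the fold threshold, and the largest adjusted p over the 7 subtypes was 0.00657. The ratio of CPM to RPKM for Maoa was 13.6 in Aδ-LTMR libraries 1 and 2 and 14.8 in Aβ Field-LTMR library 2, beside a median of 7.66. Those Aδ-LTMR libraries also had mapping rates of 61.4% and 74.5%, beside 86.1% to 97.7% in all others. Markers of other cells did not all follow Maoa. The 5 pericyte markers summed to 685 to 1753 CPM in C-LTMRs and at least 176 in Aδ-LTMRs. They summed to 3.67 to 137 CPM in the other subtypes, with 30.4 to 55.75 in nonpeptidergic nociceptors, the next subtype in Maoa. None of the 5 was at 0 throughout C-LTMRs. In C-LTMRs the pericyte sum was mostly Rgs5 (1273 CPM), while Pdgfrb, another of the 5, was lower there than the mean of the others (-1.23, at 3.32 CPM). Pdgfrb was higher in nonpeptidergic nociceptors than in every other subtype (2.05% of all genes were), at 29.5 ± 2.7 CPM. The 6 Schwann cell markers also had their highest sums in C-LTMRs, at 2502 to 2853 CPM, beside 1447 to 2131 in Aδ-LTMRs, 1751 to 1849 in nonpeptidergic nociceptors and 304.5 to 322 in proprioceptors. In C-LTMRs that sum was mostly Pmp22 (2429 CPM), and Pmp2 was at 0 in all 3 libraries. The 6 fibroblast markers summed to 133 to 159.5 CPM in C-LTMRs, mostly Dcn (117 CPM), and to 8.84 to 83.4 in the other subtypes. Nonpeptidergic nociceptors had the lowest of these sums, at 8.84 to 16.3 CPM. Of these 6, 2 (Dcn and Pdgfra) were higher in C-LTMRs than the mean of the others (10.1% of all genes were). Another 3 were lower (8.22% of all genes were): Col1a1 (-3.11), Lum (-2.21) and Col3a1 (-1.945). The mean log2 CPM of the 6 was highest in Aδ-LTMRs (3.11), beside 1.78 in C-LTMRs. The 8 endothelial markers summed to 38.3 to 80.7 CPM in Aδ-LTMRs, and their 8.79 to 9.66 in C-LTMRs lay within the range of the remaining subtypes. The part of these markers in the level of Maoa was not tested.

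**Figure D3:**
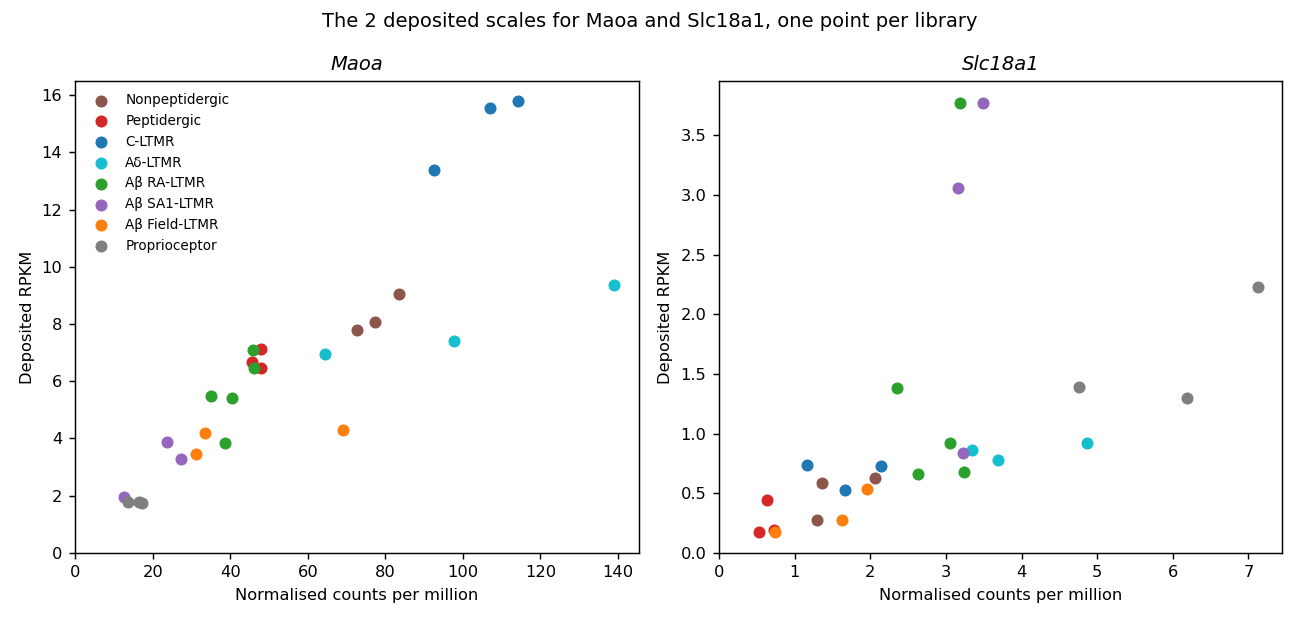
Normalised CPM (x axis) against deposited RPKM (y axis) of Maoa and Slc18a1, with 1 point per library coloured by subtype. For Maoa the C-LTMR libraries lie highest on the RPKM axis (13.4 to 15.8) while an Aδ-LTMR library lies highest in CPM (139), and for Slc18a1 1 Aβ RA-LTMR and 2 Aβ SA1-LTMR libraries have an RPKM above 3 at 3.16 to 3.49 CPM.

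Across the 26 libraries, the tested genes did not share 1 pattern. The log2 CPM of Th had a Pearson r of 0.54 with Maoa, 0.18 with Gch1, -0.46 with Slc18a1 and -0.44 with Slc18a2. Slc18a1 and Slc18a2 had the highest value of any pair (0.69), and Ddc and Gch1 the lowest (-0.65). These are descriptions, since libraries of a subtype share their source. Among 10757 genes searched, those most like Th were Dgkk (0.92), Efr3b (0.92), the calcium channel gene Cacna1i (0.91), Fxyd6 (0.90) and Scin (0.90), each highest in C-LTMRs. For Maoa they were Tmem200a (0.91), Camk2d (0.91), Pmp22 (0.91), Cpne3 (0.90) and Bmper (0.88). For Gch1 they were Tmem255a (0.84), Irf9 (0.82), the substance P precursor Tac1 (0.81), Gpr165 (0.81) and Dab2ip (0.79). Slc18a1 was most like Spsb1 (0.91), Sncb (0.89), C2cd4c (0.89), Inppl1 (0.88) and Rnf26 (0.86), and genes like Slc18a2 included Sema6b (0.81), Col6a3 (0.79), Ankrd40 (0.78) and Edil3 (0.77). All 9 of these were highest in proprioceptors.

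The other genes of the tetrahydrobiopterin cofactor were read in the same comparison of C-LTMRs with the mean of the other 7. Of 7 tested, 1 was higher and 2 were lower, beside 10.1% and 8.22% of all genes. The median log2 difference of the 7 was -0.60. Pcbd1, which recycles the cofactor after hydroxylation, was higher by 1.41 (SE 0.21, adjusted p = 8.94e-06), at 75.3 ± 4.8 CPM (SD, n = 3) in C-LTMRs beside 49.3 ± 5.5 in nonpeptidergic nociceptors, the next subtype. Spr, sepiapterin reductase of the closing step of synthesis, was lower (-1.82, SE 0.29, adjusted p = 1.71e-05), at 3.41 ± 0.71 CPM beside 6.70 ± 0.27 in peptidergic nociceptors, the next lowest. Pts (0.43), Qdpr (-0.50), Pcbd2 (-0.60) and the Gch1 feedback regulator Gchfr (-1.82, adjusted p = 0.0615) did not pass.

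Of the other breakdown and conjugation genes, 1 of 6 was higher in C-LTMRs and 2 were lower, beside 10.1% and 8.22% of all genes. The median of the 6 was -0.33. Akr1b3, an aldose reductase that reduces aldehydes left by monoamine oxidase, was higher by 1.496 (SE 0.25, adjusted p = 3.09e-05), at 9.45 ± 0.26 CPM. The aldehyde dehydrogenases were lower: Aldh1a1 by -3.27 (SE 0.58, adjusted p = 7.72e-05), at 0.192 ± 0.156 CPM beside 18.5 ± 8.7 in Aβ Field-LTMRs, and Aldh2 by -1.13 (SE 0.20, adjusted p = 9.24e-05). Neither was lower than in every other subtype. Nonpeptidergic nociceptors had 0.123 CPM of Aldh1a1, and 11.1 CPM of Aldh2 beside 9.63 in C-LTMRs. Maob, the other monoamine oxidase, was highest in Aδ-LTMRs (7.74 ± 1.54 CPM) and did not pass in C-LTMRs (0.80, adjusted p = 0.191). Sult1a1, a sulfotransferase, was among the 0.988% of all genes higher in proprioceptors than in every other subtype, at 16.4 ± 4.5 CPM.

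Further synthesis, vesicle and uptake genes gave 0 higher and 1 lower of 5 tested in C-LTMRs, beside 10.1% and 8.22% of all genes. Pnmt, which makes adrenaline, had 10 counts in the series and was not tested. Slc22a2, a low-affinity transporter, was lower (-3.32, SE 1.07, adjusted p = 0.0176), with 4.67 ± 7.19 CPM in Aβ SA1-LTMRs, where it was higher than in every other subtype (0.155% of all genes were) but unevenly so. Moxd1, a relative of Dbh, was higher in nonpeptidergic nociceptors than in every other subtype (2.05% of all genes were), at 160 ± 25.2 CPM beside 15.5 ± 2.1 in C-LTMRs. Cyb561, the cytochrome that keeps vesicular ascorbate reduced for Dbh, was higher in proprioceptors than in every other subtype (63.8 ± 9.8 CPM). Slc29a4, the plasma membrane monoamine transporter, was at 14.1 ± 2.2 CPM in C-LTMRs and differed by -0.86, under the fold threshold.

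Among serotonin and histamine genes, 2 of 4 tested were higher in C-LTMRs and 1 was lower, beside 10.1% and 8.22% of all genes. Tph2, the neuronal tryptophan hydroxylase, was higher by 2.84 (SE 0.36, adjusted p = 7.63e-07), at 4.27 ± 0.17 CPM beside 1.71 ± 0.59 in Aδ-LTMRs. Hdc, histidine decarboxylase, was higher by 4.45 (SE 0.53, adjusted p = 4.61e-07), at a low 1.84 ± 0.34 CPM. Its 3 Aβ Field-LTMR libraries were at 0, so this fitted value is not a bound. Hnmt, which inactivates histamine, was lower (-1.28, adjusted p = 0.00331), and the serotonin transporter Slc6a4 (0.03, adjusted p = 0.85) did not pass. Neither Tph2 nor Hdc was higher than in each of the other 7 subtypes.

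**Figure D4:**
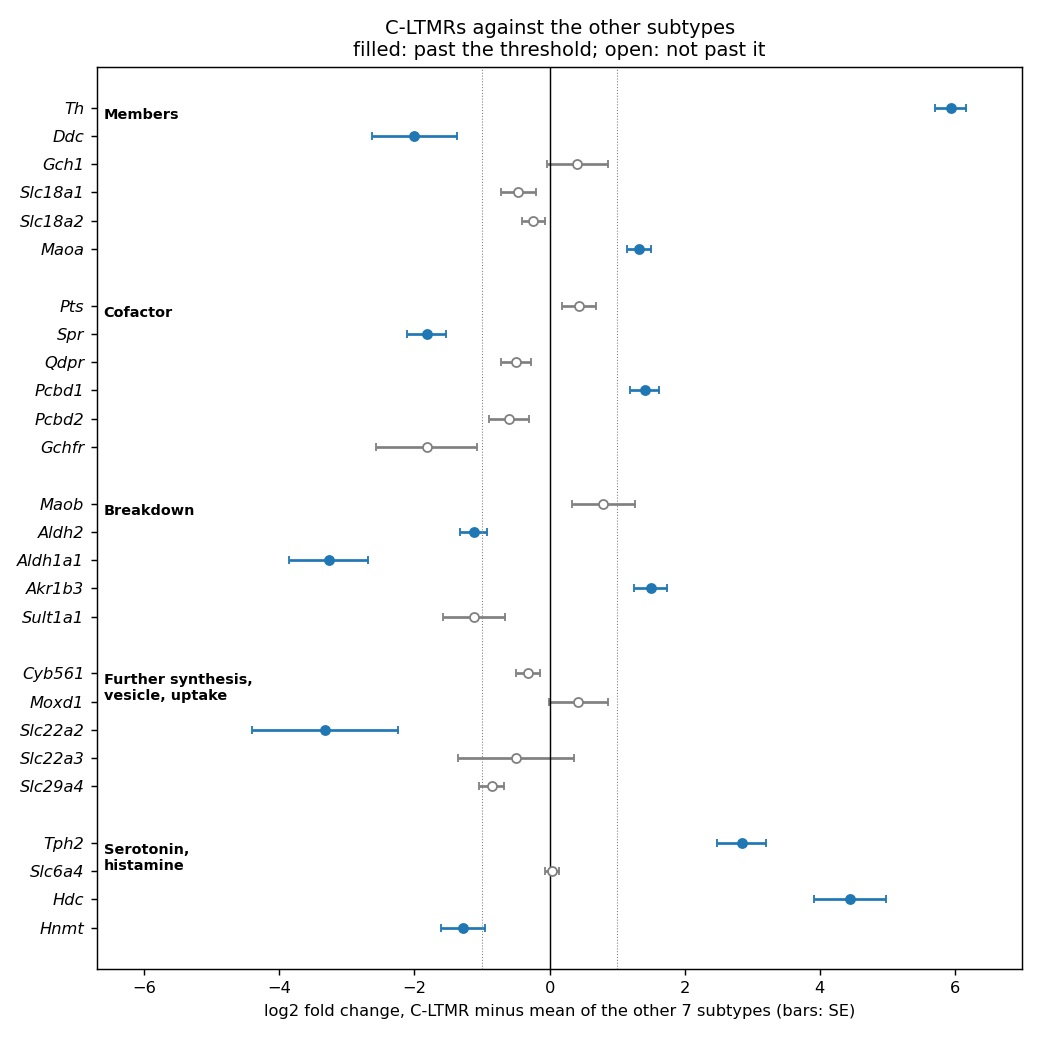
Log2 fold change of C-LTMRs against the mean of the other 7 subtypes (x axis, with SE bars) for the 6 tested genes of the pathway and for genes of 4 related lists (y axis). Filled points passed the threshold, dotted lines mark a log2 change of 1 in each direction, and Th lies farthest to the right at 5.94, with Ddc at -2.003.

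Receptors for catecholamines gave 4 higher and 2 lower of 12 tested, beside 10.1% and 8.22% of all genes. Adrb1 was higher by 3.28 (SE 0.36, adjusted p = 7.34e-08), at 8.03 ± 0.81 CPM beside 5.93 ± 1.16 in Aδ-LTMRs, and Adra2a, the inhibitory alpha-2A receptor, by 3.21 (SE 0.44, adjusted p = 2.15e-06), at 5.02 ± 1.08 CPM beside 4.73 ± 0.45 in peptidergic nociceptors. Adra1d (2.44) also passed, but it was higher in proprioceptors than in every other subtype, at 8.14 CPM beside 2.19 in C-LTMRs. Drd3, which had 73 counts in the series, passed too, and its highest mean was in peptidergic nociceptors (0.222 CPM). Adra1b (-2.11) and Adra2c (-1.47) were lower.

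Factors that set noradrenergic and dopaminergic identity in other neurons gave 1 higher of 5 tested, beside 10.1% of all genes. Insm1, a zinc-finger factor of neuroendocrine cells, was higher in C-LTMRs by 3.88 (SE 0.36, adjusted p = 3.06e-09), at 19.1 ± 2.4 CPM beside 8.33 ± 1.62 in nonpeptidergic nociceptors. Nr4a2, known from midbrain dopamine neurons, was higher in Aδ-LTMRs than in every other subtype (0.494% of all genes were), at 28.4 ± 11.1 CPM, beside 3.68 ± 0.89 in C-LTMRs. Phox2a, Hand1, Hand2 and Gata3, which are known from sympathetic neurons, had 3, 2, 9 and 8 counts in the series and were at 0 in all 3 C-LTMR libraries. The summed level of the 9 sympathetic and chromaffin markers was 64.6 to 91.4 CPM in C-LTMRs, within the 35.8 to 171 CPM of the other subtypes. It came mostly from Chrna3 (46.6 CPM) and Chga (29.3 CPM), whose highest means were in peptidergic nociceptors (61.2 CPM) and Aβ SA1-LTMRs (151 CPM). Of the 3 markers tested against the mean of the other 7, Chrna3 was higher in C-LTMRs (4.12, SE 0.46, adjusted p = 1.43e-07). Chga was lower (-1.40) and Npy did not pass (SE 66.8, adjusted p = 0.993). Npy was at 0 in all nonpeptidergic and Aβ RA-LTMR libraries, so the mean of the others could not be estimated. It stood at 0.0177 CPM in C-LTMRs and at 6.44 ± 7.41 in Aβ SA1-LTMRs.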

How the data were processed

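The authors deposited raw counts per Ensembl gene and RPKM for 26 libraries, and an alignment summary with shares as a fraction and read numbers as counts. Per the submitters' processing notes, the tools included FastQC 0.11.3, STAR, HTSeq 0.6.1, Cuffdiff and DESeq2 1.14.1, on mm10, with roles not stated. RNA was amplified with a Nugen kit, per the labels' protocols. The genes were matched by symbol in the RPKM table and by Ensembl identifier in the counts. Positions came from GENCODE M21. The counts were fitted in edgeR 4.0.16 (R 4.3.3) with TMM factors, filterByExpr over the 8 subtypes, and a robust quasi-likelihood fit without covariates. Adjustment was over all genes, and SE is the log2 fold change over the root of F. C-LTMRs were compared with the equal-weight mean of the other 7 subtypes and with each of them, and all 28 pairs were tested. Log2 CPM used a prior count of 2. Alternatives used DESeq2 1.42.0, limma 3.58.1 on RPKM, other factors, filters and covariates, and left out libraries. The fit was tested on simulated data. All 9 genes are named. Genes of related lists are named where they passed, with some others for their role, chosen after their values were seen. For each tested gene with a subtype mean of at least 5 CPM, the 5 genes of highest Pearson r are named. Some genes that these rules select are counted but not reported here. The genes and lists were chosen with earlier results of these data known. Precision at low levels is limited by counting, and 3 counts is taken as the limit a count of 0 allows. Drd1 was not analysed here.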

Additional observations from a re-analysis of the deposited data

Results flagged for a closer look

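In the group of 5 Aβ RA-LTMR libraries, 12 checks were made for a sample far from the others (Dixon's ratio of gap to range), and chance marks about 1 in 20 groups. Th was high in Aβ RA-LTMR library 1 on both scales, at 4.99 CPM beside 2.47 to 2.93 in the other libraries, and at 4.30 RPKM beside 1.21 to 1.81. Slc18a1 was high in Aβ RA-LTMR library 5 by RPKM, at 3.78 beside 0.659 to 1.38, while its CPM there, 3.19, lay within the range of the other libraries.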

How the results depend on the processing

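Of the 6 tested genes, all 6 differed over the subtypes, Th alone was higher in C-LTMRs than in every other subtype, and 2 were higher than the mean of the others, under each of 11 other settings and each of 26 omissions of 1 library. The count lower than the mean, 1 (Ddc), fell to 0 with limma on log2(RPKM + 1) and in the fit that took the satellite glia score into account, and ran from 0 to 1 over the omissions. The 85 passing gene-by-pair tests became 43 with limma on log2(RPKM + 1) and 76 to 91 over the omissions. Other settings also moved it. In the main fit Ddc, Gch1 and Slc18a1 passed in 17, 12 and 17 pairs. With the satellite glia score taken into account these were 12, 7 and 9. With the range of read lengths taken into account they were 13, 6 and 14, and with DESeq2 22, 14 and 17. Slc18a2 changed sign on log2(RPKM + 0.1) (0.10) and log2(RPKM + 1) (0.048) and passed in neither. On log2(RPKM + 0.1) the median of all genes was 0.14 (17344 genes), so the value for Slc18a2 lay below it. The cause was not tested. With the replicate number as a replicate block, 83 gene-by-pair tests passed. The numbers did not pair the libraries: over 84 same-numbered pairs the correlation of deviations ran from -0.15 to 0.24, with 4 above 0.1, and 8 of 26 libraries correlated best with one of their own number. Depth limits Dbh, Slc6a2, Slc6a3 and Ddc, whose C-LTMR counts were 12 or fewer.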
